A study of Mus musculus with 2 samples.

Results

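The subject is a set of 500 chromatin regions with a higher level in neurons than in the pooled other cells of the control library. They were weaker in neurons of the Nfia/b/x-deficient library. The choice did not ask that they be closed in other cells. They were chosen from 107377 regions in all, of which 62373 had at least 50 detections in the neurons of both libraries together. Each region recorded as open in a given cell counts as 1 detection. Levels were expressed as detections per 1000000 detections of a cell type, and L is the log2 of that level plus 5. A region was a neuronal candidate when L in control neurons exceeded L in all other control cells by at least 0.5, which 9346 regions did. The 500 candidates with the lowest L of deficient neurons minus L of control neurons are called the weaker neuronal regions, and the other 8846 candidates the other neuronal regions. The values that chose the set are given below as a description and support nothing. No region number is paired with a position or gene in the files used here, so regions carry their row numbers, no sequence is shown, and the neuron label was not checked against marker genes.

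Single-cell ATAC-seq, in which the Tn5 transposase cuts open chromatin in single nuclei, was applied to cells sorted for GFP from the mediobasal hypothalamus at postnatal day 8. Control mice carried Rax-CreER and CAG-lsl-Sun1-GFP. Deficient mice carried the same 2 alleles together with Nfialox/lox, Nfiblox/lox and Nfixlox/lox. Each genotype had 1 library, so no test between genotypes was possible and genotype cannot be told apart from library. Rax-CreER acts in tanycytes, and the Sun1-GFP tag marks the nuclear envelope of cells in which Cre has acted and of their progeny. The labels call the sorted cells GFP-positive tanycytes, and neurons are a minority of them by the authors' annotation. The number of animals per library is not stated, and the floxed genes were not analysed here.

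NFIA, NFIB and NFIX are members of the nuclear factor I family, which bind DNA as dimers and are known for their part in glial differentiation and in the maturation of neural cells. Tanycytes are radial glia-like cells of the wall of the third ventricle that keep some capacity to form neurons. Regions open in one cell type only are often enhancers, whose opening follows the transcription factors of that type.

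The control library held 8948 cells, of which 882 were named neurons by the authors, and the deficient library 13337 cells with 2520 neurons. Neurons were of like depth, with a median of 3343 detections per control neuron and 3305 per deficient neuron, and sums of 3762392 and 9840566 detections. The libraries shared 204 cell barcodes, and leaving those cells out left the summed log2 ratio of the set in neurons at -2.36. Compared with mean profiles of the 9 types, 79.6% of control and 84.0% of deficient neurons lay nearest to the neuronal profile. Intervals are exact 95% intervals that cover counting error only: they leave out differences between cells and animals.

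As a set, the weaker neuronal regions took 9.38 of every 1000 detections in control neurons (9.28 to 9.47) and 1.83 in deficient neurons (1.8 to 1.86), a ratio of 5.12. The rule fixed this direction. Over single regions, the median was 63 control neurons (range 37 to 234) and 29 deficient neurons (range 6 to 233), although the deficient library held more neurons. In shares of neurons these medians were 7.14% and 1.15%. All 500 were lower by 2-fold or more on the L scale, as were 2.18% of all 62373 regions, and nothing is read from that difference because the rule used it. Their L difference had a median of -1.40 and ran from -2.47 to -1.19, against medians of -0.23 over the other neuronal regions and 0.039 over all 62373. No region of the set was undetected in deficient neurons, and 136 of the 500 had fewer than 20 detections there.

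The set did not stop at a gap in the values. Its last 2 members were region 79620, found in 80 control and 64 deficient neurons, and region 88735, found in 59 and 40. The first 2 candidates left out, region 40660 and region 65122, were both found in 52 control and 32 deficient neurons, with the same L difference of -1.19 to 2 decimals. At the other threshold, regions 35623 and 101253 entered with an L in control neurons 0.50 above other control cells. A further 244 regions were as low in deficient neurons but were less than 0.5 above other control cells. Of these the nearest were region 54678 (62 control and 19 deficient neurons) and region 91849 (48 and 20).

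Region 24454 had the lowest L difference of all. It was found in 136 of 882 control neurons, or 15.4% (13.1 to 18%), and in 24 of 2520 deficient neurons, or 0.952% (0.611 to 1.41%). Its L difference was -2.47, and without a pseudocount it was 14.8-fold lower (9.55 to 23.9). Region 10806 followed with 146 control and 32 deficient neurons, 16.6% and 1.27%. The other 10 of the lowest 12 were found in 79 to 136 control neurons and 10 to 50 deficient neurons. Region 42278 had the steepest ratio of these 12, with 79 and 10 neurons, or 20.7-fold (10.7 to 44.8). In each of the 12 the control interval lay wholly above the deficient one. The 12 were ranked on these same counts, so this separation follows largely from the choice.

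**Figure D1:**
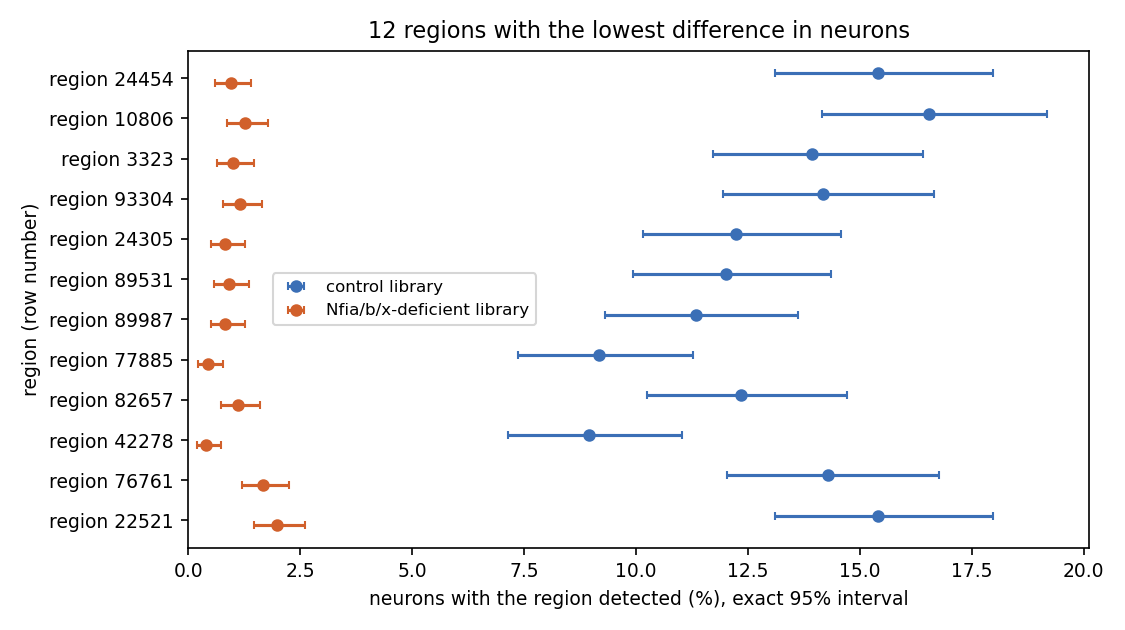
Share of neurons in which each of the 12 regions with the lowest L difference was detected (x axis, percent, with exact 95% intervals) in the control (blue) and deficient (orange) library, by region row number (y axis). Control shares run from 8.96% to 16.6%, and deficient shares from 0.397% to 1.98%. These regions were chosen by these values.

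The set was not made only of regions that were nearly closed in deficient neurons. Region 93731 was the most widely detected member, in 234 control neurons (26.5%, 23.6 to 29.6%) and 233 deficient neurons (9.25%, 8.14 to 10.4%), a 2.63-fold difference (2.18 to 3.16). Region 70393 came next, with 205 control neurons (23.2%) and 101 deficient neurons (4.01%), or 5.31-fold (4.16 to 6.81). Regions 43232, 31628, 101632, 99372, 12953 and 10806 complete the 8 most detected, at 146 to 161 control neurons. Among those 6 the fold difference ran from 3.30 in region 101632 to 11.9 in region 10806. Ordered by control level, the most detected 167 regions were 4.47-fold lower in sum, the middle 167 were 5.53-fold lower and the least detected 166 were 6.54-fold lower. A choice by log2 level plus 5 asks a steeper ratio of a region of low level, so this order follows from the rule.

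In control neurons the weaker regions were spread widely over cells. The median control neuron had 31 of them, or 9.64 per 1000 of its detections, and the central 90% of cells ran from 2.46 to 22.2. The median deficient neuron had 6, or 1.59 per 1000, with a central 90% of 0.392 to 5.83. At least 10 per 1000 was reached by 428 of 882 control neurons (48.5%, 45.2 to 51.9%) and 32 of 2520 deficient neurons (1.27%, 0.870 to 1.79%). Below 2 per 1000 the counts turned around, with 26 control neurons (2.95%) and 1597 deficient neurons (63.4%). The regions were chosen for being lower in these same deficient neurons, which fixes the direction of the shift. At 5 per 1000 or more there were 180 deficient neurons (7.14%) and 704 control neurons (79.8%).

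Non-neuronal cells set the level against which these values can be read. Their median was 2.26 per 1000 in the control library, and 174 of 8066 cells (2.16%) reached 5 per 1000. In the deficient library the median was 1.12, and 26 of 10817 cells (0.24%) reached 5. The median deficient neuron thus lay below the median non-neuronal cell of the control library and above that of its own library. The rule took low levels in deficient neurons, so the place of that median is a description. With every cell thinned to 2000 detections, the median was 17 of the 500 regions in 602 control neurons and 3 in 1960 deficient neurons. Thinning left out 280 control and 560 deficient neurons that were shallower. At that depth 78.7% of control neurons, 4.74% of deficient neurons, 4.32% of control non-neuronal cells and 0.496% of deficient non-neuronal cells had 10 or more of the regions.

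**Figure D2:**
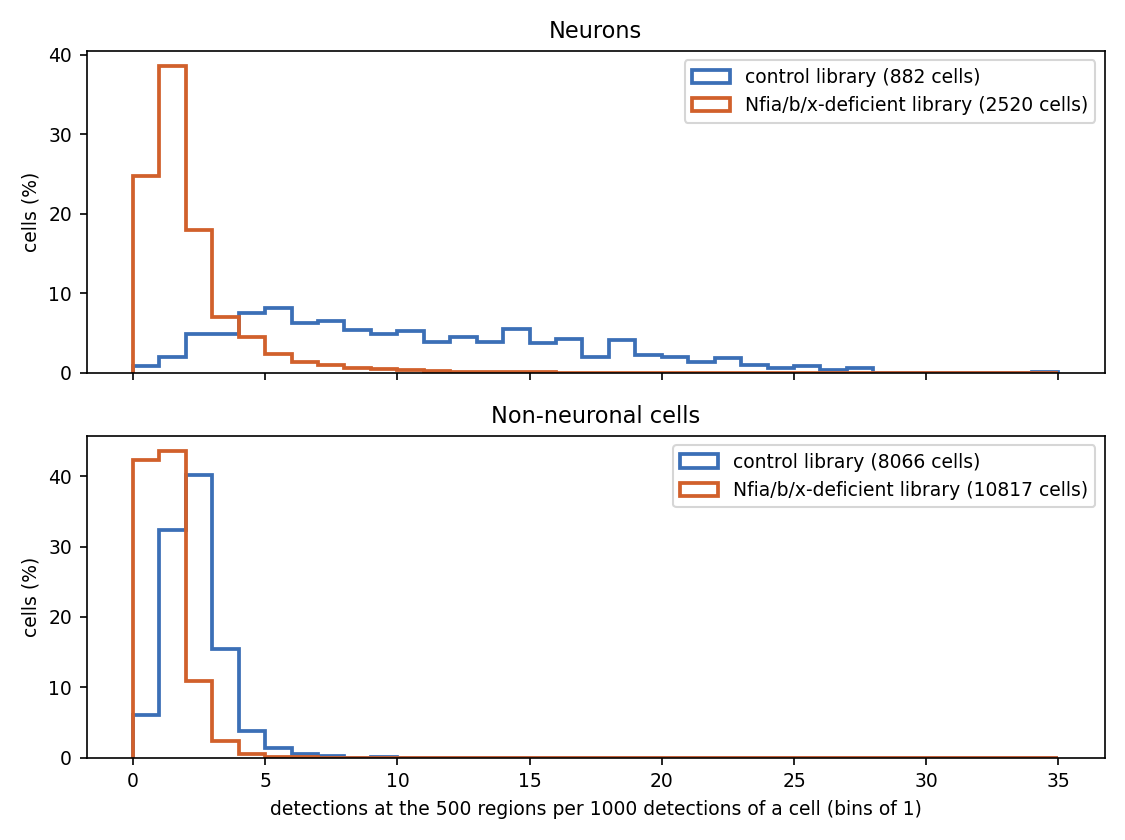
Detections at the 500 weaker neuronal regions per 1000 detections of a cell (x axis, bins of 1) against the percent of cells (y axis), for neurons (top) and non-neuronal cells (bottom) of the control (blue) and deficient (orange) library. Control neurons spread up to 34.4 with a median of 9.64, whereas deficient neurons have a median of 1.59 and overlap with non-neuronal cells.

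Neurons differed in how much of their accessibility lay at the other neuronal regions. Both candidate groups were chosen as neuronal in the control library, and a rise of one with the other within neurons is partly built in. Control neurons were put in 3 equal classes by this share. The lowest 294 (3.32 to 11.7% of detections) had 5.47 detections of the weaker regions per 1000, the middle 294 had 10.9 and the highest 294 (16.8 to 23.0%) had 16.6. Of the 500 regions, 490 were higher in the highest class than in the lowest, as were 92.1% of the other neuronal regions. The same 3 classes of deficient neurons, with 840 cells each, had 1.28, 1.62 and 3.46 per 1000. Depth moved the opposite way: the median was 5624 detections in the lowest and 2186 in the highest control class, and 5127 and 2066 in the deficient classes. The part of depth in this gradient was not tested.

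The values of both libraries are also given by fixed classes of this share, which itself rests on candidates the rule chose. At least 16% of detections lay at the other neuronal regions in 377 control neurons (42.7%) and 288 deficient neurons (11.4%). In that class the weaker regions took 15.9 per 1000 in control and 5.22 in deficient neurons, a log2 ratio of -1.60 (-1.66 to -1.54). It came to -1.77 at 14 to 16%, -2.03 at 12 to 14%, -2.21 at 10 to 12%, -2.17 at 8 to 10% and -1.71 under 8%. Deficient neurons of the highest class, at 5.22 per 1000, were below control neurons with 8 to 10% (6.44) and above those under 8% (4.04). The rule chose the regions in these same neurons, so the direction in each class is a description. In all 6 classes the log2 ratio was nearer to 0 than the pooled -2.36.

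**Figure D3:**
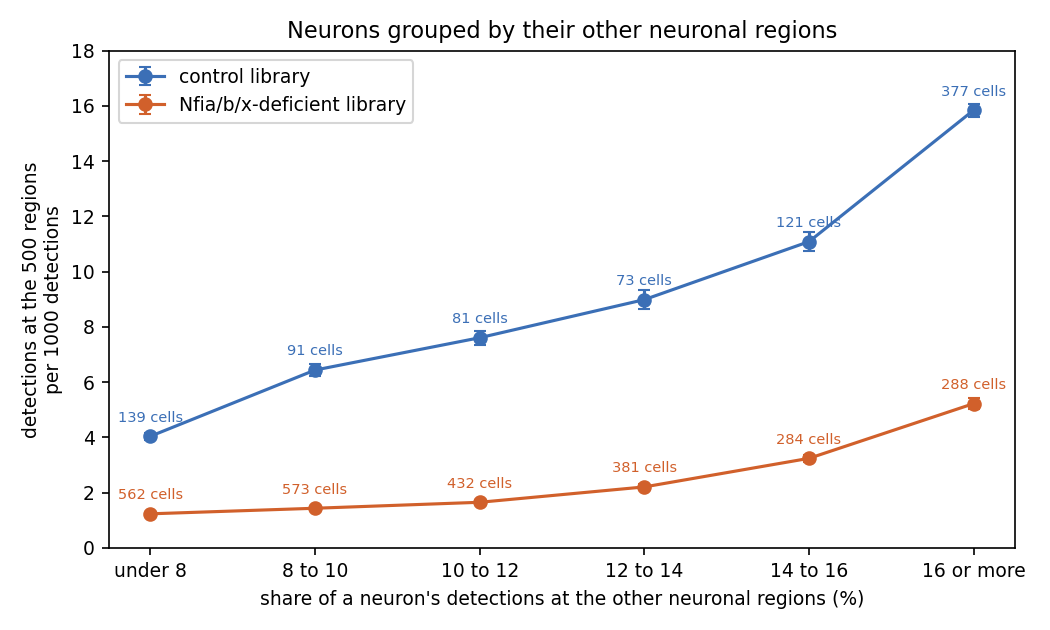
Summed detections at the 500 weaker neuronal regions per 1000 detections (y axis, with exact 95% intervals) in neurons grouped by the percent of their detections at the 8846 other neuronal regions (x axis), for the control (blue) and deficient (orange) library, with the number of cells at each point. Control values run from 4.04 to 15.9 and deficient values from 1.23 to 5.22, and the control value is higher in every group.

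The 500 candidates with the highest L difference served as a comparison. They took 4.71 per 1000 in control and 9.10 in deficient neurons, by the choice made. Across the 3 classes of control neurons they had 3.69, 5.91 and 5.55 per 1000. In the 3 deficient classes they had 7.39, 11 and 9.97. Their level was thus lower in the highest class than in the middle one in both libraries, where that of the weaker regions was higher. These 500 are among the other neuronal regions that define the classes, and the weaker regions are not. The sets are therefore not on a like footing here.

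The preference for neurons over other cells was also set in part by the rule, which asked for a high preference in the control library and took the lowest levels in deficient neurons. The values are a description. Summed over the set, control neurons had 3.87 times the level of other control cells, and deficient neurons 1.46 times that of other deficient cells. The other neuronal regions had 2.80 times in the control and 1.92 times in the deficient library. By single regions, 75 of the 500 (15%) were still at least 0.5 above other cells on the L scale in the deficient library, against 52.1% of the other neuronal regions. For 134 of the 500, L in deficient neurons was below that in the other deficient cells. Over all 62373 regions this preference in the deficient library had a median of 0.040, quartiles of -0.17 and 0.23 and a 95th percentile of 0.73. Over the set the median was 0.15, with quartiles of -0.011 and 0.38. The counts of 75 and 134 are therefore not read as a trait of the set. The largest preference left in a named region was that of region 43232, at 1.15 above other deficient cells after 2.32 in the control. With a pseudocount of 1 in place of 5, 40.2% of the set were still at least 0.5 above, and the share over all regions was not computed.

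The rule did not use deficient cells other than neurons, and there the weaker regions were lower as well. It did ask for low values in non-neuronal control cells, which favours a ratio above 0. In alpha2 tanycytes, the largest type, 2.47 of 1000 control detections and 1.19 of 1000 deficient detections fell on them, with a log2 ratio of -1.06 (-1.08 to -1.04). In alpha1 tanycytes the levels were 2.72 and 1.43 (log2 ratio -0.93, -0.99 to -0.88). Beta1 tanycytes had 2.26 and 1.34 (-0.76, -0.79 to -0.72), and beta2 tanycytes of the median eminence had 1.85 and 1.05 (-0.82, -0.87 to -0.77). These 4 subtypes of the ventricle wall all differed by more than counting error, and all in the direction of neurons. Proliferating tanycytes had -1.43 (-1.54 to -1.32), from only 63 control cells with 831 detections at the set.

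Glial types outside the tanycytes differed less. Oligodendrocyte precursor cells (OPCs), the dividing cells that form oligodendrocytes, went from 3.80 per 1000 in control to 2.48 in deficient cells (-0.62, -0.69 to -0.55). Ependymal cells, which bear cilia that move the ventricle's fluid, had 2.29 and 1.69 (-0.44, -0.53 to -0.35). Astrocytes had 2.50 and 1.98 (-0.34, -0.41 to -0.27), the ratio nearest to 0 of the 9 types. Keeping only cells nearest to their own type's profile gave -0.11 (-0.21 to -0.0073) in astrocytes and -0.14 (-0.30 to 0.017) in ependymal cells. All 9 types come from the same 2 libraries and are not independent comparisons. In the control library OPCs had the highest level of the set after neurons. In the deficient library OPCs (2.48) and astrocytes (1.98) were above neurons (1.83). The rule took the lowest levels in deficient neurons, so this order is partly built in and nothing is read from it.

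The other neuronal regions had ratios of the opposite sign outside neurons. The rule asked for high control neurons and low control non-neuronal cells, which favours a ratio below 0 in neurons and above 0 in other types. They took 121 per 1000 in control and 99.7 in deficient neurons (log2 ratio -0.28, -0.29 to -0.28), but 42.3 and 51.3 in all tanycytes (0.28, with both bounds at 0.28). Each of the 8 non-neuronal types had a ratio above 0, with the ends at 0.14 (ependymal) and 0.39 (proliferating). In each of these types the sum over the weaker regions had a ratio below 0, under the same request for low control values. The difference between the weaker and the other neuronal regions was not tested. The 500 candidates with the highest L difference, which are among the other neuronal regions, had 0.95 in neurons by the choice made. In all tanycytes they had 0.91, and the 8 non-neuronal types ran from 0.47 (astrocytes) to 1.38 (proliferating). Low control values were asked of them too. A direction shared with neurons was thus not particular to the weaker regions.

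**Figure D4:**
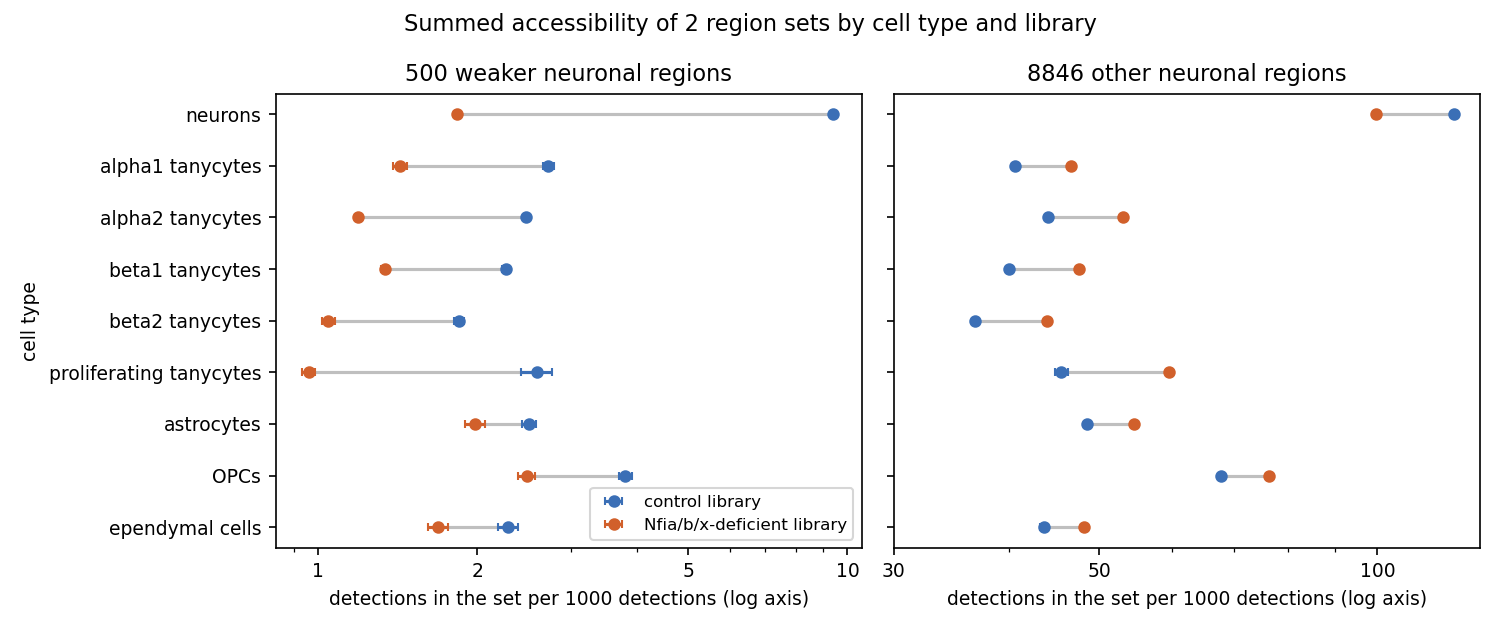
Summed detections per 1000 detections (x axes, log scale, with exact 95% intervals that are often smaller than the points) in each of 9 cell types (y axis) of the control (blue) and deficient (orange) library, for the 500 weaker neuronal regions (left) and the 8846 other neuronal regions (right). On the left the deficient point is lower in every type. On the right it is lower in neurons (99.7 against 121) and higher in the other 8 types.

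By single regions, 445 of the 500 had a lower share of detections in deficient than in control tanycytes of all 5 classes together, where 35.3% of all 62373 regions did. In alpha2 tanycytes 462 of 500 were lower, against 36.7% of all regions. The counts were 387 in beta1 (39.4%), 380 in alpha1 (42.8%), 375 in beta2 (42.2%) and 321 in proliferating tanycytes (42.6%). OPCs had 364 (47%), astrocytes 322 (47.3%) and ependymal cells 319 (47.8%). No minimum of detections was asked within these types, so regions with few or no detections count too. Over all 500 regions the median L difference in all tanycytes was -0.28, against 0.14 over the other neuronal regions and 0.061 over all 62373.

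Few members reached 2-fold in tanycytes on the L scale. Their median level in control non-neuronal cells was 3.66 detections per 1000000, below the pseudocount of 5. Of 484 members with at least 50 tanycyte detections, 11 were lower by 2-fold or more, where 0.366% of all 107235 regions tested were. With a pseudocount of 1 it was 122 of the 484, against 2.46% of all regions. At the pseudocount of 5, those 11 and the 133 lower by 0.5 to 1 took 0.15 and 1.17 of the set's 2.38 per 1000 in control tanycytes. Their L in control neurons exceeded that in other control cells by a median of 0.62 and 0.81. This median was 1.39 for the 289 lower by less than 0.5 and 1.73 for the 51 at or above 0. The summed tanycyte ratio thus leans on members more open in control tanycytes. A pseudocount weighs more on low levels, so part of this order is built in.

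Among the 412 members with at least 100 tanycyte detections, the 4 with the lowest log2 ratio in tanycytes were regions 24454, 61181, 48422 and 75319. Region 24454, also the lowest in neurons, was found in 274 control and 48 deficient tanycytes (-2.67, -3.15 to -2.23), among them 190 and 20 alpha2 tanycytes. For region 61181 the tanycyte counts were 363 and 73 (-2.47, -2.86 to -2.11), for region 48422 they were 378 and 83 (-2.35, -2.71 to -2.0) and for region 75319 they were 289 and 64 (-2.34, -2.75 to -1.94). All 4 were lower in alpha2, beta1 and beta2 tanycytes, each with an interval below 0. They were picked as the lowest in these tanycytes pooled, so low values in the subtypes are partly built in. In alpha1 tanycytes region 61181 had only 2 control and 3 deficient detections, so that no difference could be read there. Region 10806, the second lowest in neurons, was the most open of the 12 lowest outside neurons. It was found in 1035 control and 264 deficient tanycytes (-2.13, -2.33 to -1.94) and in 13.8% of control non-neuronal cells, near its 16.6% of control neurons.

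At the other end, the 4 members with the highest log2 ratio among those 412 were regions 4664, 60642, 70072 and 24708. They are examples: of the 484 members with at least 50 tanycyte detections, 51 had an L difference in tanycytes at or above 0. Region 4664 was found in 52 control and 100 deficient tanycytes (log2 ratio 0.78, 0.285 to 1.29) but in 49 control and 26 deficient neurons (4.93-fold lower). Region 60642 had 44 and 83 tanycytes (0.75, 0.21 to 1.32) and 59 and 31 neurons. In region 70072, with 47 and 75 tanycytes, and region 24708, with 71 and 101, the tanycyte interval included 0 (-0.032 to 1.07 and -0.10 to 0.81). These 4 regions were found in 0.657 to 0.930% of control non-neuronal cells, so their tanycyte values rest on few detections.

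**Figure D5:**
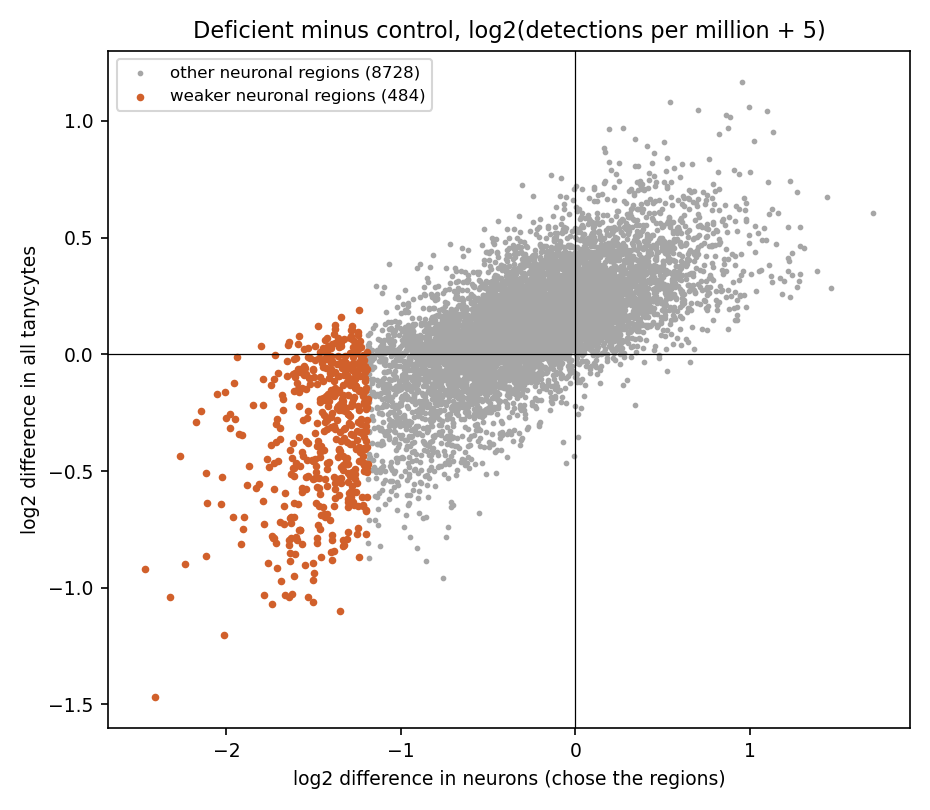
L difference, deficient minus control, in neurons (x axis, the value that chose the regions) and in all tanycytes (y axis; of these cells the choice used the control ones, pooled with all other non-neuronal cells), for weaker (orange) and other (gray) neuronal regions with at least 50 tanycyte detections. The 484 weaker regions stop at -1.19 on the x axis by the rule. Most of them lie below 0 on the y axis, down to -1.47 for region 10806.

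After neurons, the control type with the highest level was OPCs for 171 of the 500 regions (34.2%), against 37.4% of the other neuronal regions. It was proliferating tanycytes for 95 (19%), against 18.8%, and alpha1 tanycytes for 60 (12%), against 6.26%. The 4 members most detected in control OPCs were regions 39057, 79271, 81247 and 96422. Region 39057 was found in 68 of 304 control and 66 of 274 deficient OPCs (log2 ratio 0.16, -0.35 to 0.67), and in 123 control and 108 deficient neurons (2.98-fold lower, 2.28 to 3.89). For region 79271 the OPC counts were 67 and 39 (-0.58, -1.18 to 0.014). Regions 81247 (56 and 38) and 96422 (54 and 31) also had OPC intervals that included 0. None of these 4 therefore differed in OPCs beyond counting error, at a depth that would miss a moderate difference.

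In the row order of the matrix, 10 of the 500 regions (2%) had a member in an adjacent row, in 5 pairs, and 16 of the 500 candidates with the highest difference (3.2%) had one of their own. Of all 9346 candidates, 28.3% had a candidate in an adjacent row. Such a share depends on the size of a set, so only the 2 sets of 500 can be read side by side. The longest run was 2 rows: regions 18559 and 18560, 20091 and 20092, 43225 and 43226, 58712 and 58713, and 68970 and 68971. Both rows of a pair need not behave alike elsewhere. Region 43225 was found in 90 control and 33 deficient tanycytes (-1.61, -2.23 to -1.02), while region 43226 was found in 163 and 173 (-0.08, -0.39 to 0.24). The sources used here do not say whether neighbouring rows neighbour each other in the genome.

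To see how far the choice itself set the size in neurons, the set was also chosen in a random part of the cells and measured in the rest. That choice shared 391 of its 500 regions with the main set. Its log2 ratio was -2.49 in the cells that chose it and -2.16 (-2.19 to -2.12) in 438 control and 1264 deficient neurons that did not. The remaining cells come from the same 2 libraries, so this bears on counting error and not on animals. Asking for at least 200 detections in neurons gave a set that shared 30 regions with the main one, with ratios of -0.76 in neurons and -0.059 in all tanycytes. In the main set, 283 of 500 regions had fewer than 100 detections in the neurons of both libraries.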

How the data were processed

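Per the labels' protocols, the authors ran Cell Ranger ATAC at its defaults. The submitters' processing notes name the build mm10 and Cell Ranger 3.1, Signac 0.2.5, Seurat and MACS2 without their roles. The authors deposited a presence matrix of 107377 regions by 22285 cells (no score or count per entry) and 1 of 9 cell types for each cell. The sources used here do not state region calling, cell filters or doublet removal, and no doublet caller was run. The matrix has no cell names, so its columns were matched to the annotation by order. Assigning cells to the nearest profile gave their own type for 82.0% of control and 76.4% of deficient cells, where the largest type held 48.1% and 36.8%.

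Detections were summed per type and library, because cells are not replicates. Poisson, Clopper-Pearson and conditional binomial intervals are exact, at 95%. With 1 library per genotype no p-value is given. The members and lists were chosen with earlier results of these data known. Named regions are the 12 lowest and the 8 most detected in control neurons, the 4 highest and 4 lowest in tanycytes by log2 ratio with at least 100 detections, the 4 highest in OPCs, those at the thresholds and the longest run of rows; the 4 next to the threshold of 0.5 were added after their values were seen. The code of the region choice was run on simulated counts in which some candidates were lowered by a known fold. The simulation held no differences between cells or animals, so it bears on the code and not on the regions chosen. Software was matplotlib 3.10.9, pandas 2.3.3, scipy 1.17.1, numpy 2.4.6 and Python 3.11.15.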

Additional observations from a re-analysis of the deposited data

Results flagged for a closer look

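Several results had opposite directions in neurons and in tanycytes under the same contrast, and the difference between the cell types was not tested. The other neuronal regions had a summed log2 ratio of -0.28 in neurons and 0.28 in all tanycytes. Their choice by high control neurons and low control non-neuronal cells favours these 2 signs. Of the weaker neuronal regions, all lower in deficient neurons by the choice made, region 4664 had a log2 ratio of 0.78 in all tanycytes, region 60642 had 0.75, region 70072 had 0.51 and region 24708 had 0.35. These 4 regions were picked as the highest in tanycytes.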

How the results depend on the processing

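The summed log2 ratio was -2.36 in neurons and -0.99 in all tanycytes. Where the set was chosen anew in the cells that measured it, the sign in neurons was fixed by the choice and shows no stability. In tanycytes the ratio was below 0 under each alternative run. Choosing the set anew gave, for neurons and tanycytes in turn, -2.58 and -1.12 with a pseudocount of 1, -1.69 and -0.65 with a minimum of 100 detections, -0.76 and -0.059 with 200, -2.39 and -1.01 with no minimum, -2.40 and -1.07 with median-of-ratios scaling, -2.16 and -0.59 with a preference of at least 1, and -1.38 and -0.28 with a preference of 0.5 in both libraries. The last shared 75 of its 500 regions with the main set, the minimum of 100 shared 217 and that of 200 shared 30, so these mostly describe other regions. In the cells left out of a choice made with a minimum of 25 detections, neurons had -2.16. Cells thinned to 2000 detections gave -2.45 and -0.96, and leaving out the deepest 5% gave -2.38 and -0.98. In neurons, cells with at least 4000 detections gave -2.45, and neurons whose nearest profile is neuronal -2.57. Neurons with 10 to 14% of detections at other neuronal regions, an alternative added after seeing the data, gave -2.12.

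Astrocytes changed sign, to 0.015 with the minimum of 200 and 0.027 with a preference in both libraries, both with intervals that include 0 (-0.031 to 0.060 and -0.064 to 0.12). With the minimum of 200 the interval also included 0 in beta2 tanycytes (-0.014, -0.041 to 0.013), OPCs (-0.033, -0.074 to 0.0090) and ependymal cells (-0.033, -0.087 to 0.022), and in ependymal cells also with cells nearest to their own profile (-0.14, -0.30 to 0.017). Profiles could not be used for proliferating tanycytes, since no control cell was assigned to that class. With a pseudocount of 1, the members lower by 2-fold in tanycytes were 122 in place of 11, and those still neuronal in the deficient library 40.2% in place of 15%. Within 5 rows, 37 members had a member as a neighbour in place of 10. The count was also 37 among the 500 candidates with the highest difference. No paired analysis was possible because each genotype has 1 library, and leaving out a replicate was not possible for the same reason. Depth limits single regions: 283 of the 500 had under 100 detections in neurons.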
